A study of Homo sapiens with 54 samples.

Results

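The 33 genes described here serve the integrated stress response and the unfolded protein response. They were taken by symbol from the 26517 gene rows of each raw count table, and were kept apart as 15 genes of the ATF4 arm and 18 genes of the endoplasmic reticulum (ER) chaperone arm. All 33 were present in every table and passed the filter on low counts in each of 3 experiments. BT549, the cell line used throughout, is an established line from a human triple-negative breast tumour, and its bulk RNA was sequenced in 54 libraries that form 18 groups of 3. In the GATA6 experiment, cells were transfected for 72 h with siGATA6, pooled siRNAs that target the gene of the transcription factor GATA6, or with the control siCtl. Each was then given 500 nM dexamethasone (DEX, a synthetic glucocorticoid) for 2 h or vehicle. In the BRM014 experiment, cells without siRNA received 10 µM BRM014, which inhibits the SWI/SNF ATPases BRG1 and BRM, or DMSO. Each was combined with 500 nM DEX or left without it, and cells were collected at 4 h and at 24 h. In the AP-1 experiment, siFRA1 (against FOSL1) or siJUN was set against siCtl, each with DEX or vehicle, and the labels give no dose or time for it. The labels give the genotype of every library as WT, and all groups rest on 1 line.

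The integrated stress response begins when a kinase such as PERK phosphorylates the translation factor eIF2α: general protein synthesis slows while ATF4 mRNA is translated more. ATF4 then switches on genes for amino acid synthesis, for transport and for feedback. The unfolded protein response senses misfolded protein in the ER through PERK, IRE1 and ATF6, and the factors XBP1 and ATF6 raise chaperones and the machinery that removes misfolded protein. Secretory cells keep part of this programme running at rest.

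Library totals lay between 10186607 and 30530736 counts. All levels below are CPM, counts scaled to library totals after trimmed-mean (TMM) adjustment. They are set side by side only within 1 experiment, apart from RN7SK and RNA45S5 beside the molecule labels. The mesenchymal genes VIM, FN1, CDH2, ZEB1 and SPARC were detected in every library, VIM at no less than 1380.0 CPM. EPCAM, ESR1, PGR and PECAM1 did not pass 0.623 CPM in any library. In the BRM014 experiment ZEB1 ranged from 4.90 to 118 CPM and differed within groups. It was at 104, 9.28 and 103 CPM with BRM014 at 24 h, and at 83.9, 17.9 and 106 CPM with DEX and BRM014 at 4 h. SPARC averaged 235 CPM with BRM014 at 24 h and 980 CPM with DMSO. The epithelial gene CDH1 was at low levels, up to 16.6 CPM, and the leukocyte gene PTPRC reached 2.16 CPM. The siRNA targets checked the labels: GATA6 averaged 10.3 ± 0.164 CPM with siGATA6 and 85.2 ± 6.51 CPM with siCtl, FOSL1 averaged 46.8 ± 5.22 CPM with siFRA1 and 172 ± 11.6 CPM with siCtl, and JUN averaged 99.1 ± 13.1 CPM with siJUN and 280.4 ± 12.02 CPM with siCtl (vehicle, SD, n = 3 each). Replicates were closest in the GATA6 experiment (biological coefficient of variation 5.57%), against 9.8% in the AP-1 and 18.8% in the BRM014 experiment. In the last of these, several 24 h libraries stood apart. The replicate numbered 2 of DEX with DMSO at 24 h had a median rank correlation of 0.964 with its own group, and that of BRM014 at 24 h had 0.969. The replicate numbered 3 of DEX with DMSO at 24 h, the shallowest library of that experiment (13243316 counts), also had 0.969, whereas GATA6 libraries had 0.997 throughout. The counts do not separate spliced from unspliced XBP1 mRNA. For 14 of the 33 genes an exon overlaps one on the opposite strand, and the strand setting is not given in the sources used here.

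The promoter windows shown were chosen for holding a match, among genes of both arms with a call under BRM014 or DEX. They carry the letters by which the arms are usually recognised. In the 250 bases before the RefSeq start (build GRCh38.p14), available for 31 of the 33 members, the ER stress element ERSE (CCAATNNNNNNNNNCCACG, either strand) was found in 7 of 18 ER-arm genes (38.9%). They were CALR, CANX, CRELD2, HSP90B1, HSPA5, PDIA6 and XBP1. Of all 27305 genes with such a window, 25 (0.0916%) held it. The C/EBP-ATF element CARE (TGATGNAA, either strand) was found in 3 of 13 ATF4-arm genes (23.1%), which were ASNS, CEBPG and CHAC1, in 1 ER-arm gene, HERPUD1, and in 3.89% of all genes. A strict glucocorticoid response element, GRE (GNACANNNTGTNC, either strand), was in 0 of the 31 windows and in 0.399% of all genes. DDIT3 and DDIT4, whose windows held no match to ERSE, CARE or GRE, are not shown. Capitals mark the matched letters, each window reads 5′ to 3′ along the gene's strand, and a match is a description of sequence only.
HSPA5 (ERSE, chr9:125241344-125241593, minus strand): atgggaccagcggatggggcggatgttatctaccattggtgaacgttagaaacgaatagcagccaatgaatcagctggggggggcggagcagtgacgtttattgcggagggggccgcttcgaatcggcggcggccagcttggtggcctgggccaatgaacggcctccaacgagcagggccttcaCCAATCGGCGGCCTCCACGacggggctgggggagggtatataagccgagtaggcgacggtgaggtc
XBP1 (ERSE, chr22:28800570-28800819, minus strand): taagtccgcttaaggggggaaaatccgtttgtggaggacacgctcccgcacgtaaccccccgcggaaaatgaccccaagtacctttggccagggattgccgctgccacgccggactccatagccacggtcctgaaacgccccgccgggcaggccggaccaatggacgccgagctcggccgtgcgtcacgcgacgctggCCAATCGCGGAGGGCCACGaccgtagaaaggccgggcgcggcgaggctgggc
HSP90B1 (ERSE at both matches, chr12:103930160-103930409, plus strand): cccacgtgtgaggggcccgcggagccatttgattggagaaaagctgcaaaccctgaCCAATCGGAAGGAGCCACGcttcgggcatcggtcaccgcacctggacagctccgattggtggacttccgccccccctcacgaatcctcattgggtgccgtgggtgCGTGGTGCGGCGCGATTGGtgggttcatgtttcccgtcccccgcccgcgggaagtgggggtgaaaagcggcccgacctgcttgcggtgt
ASNS (CARE, chr7:97872409-97872658, minus strand): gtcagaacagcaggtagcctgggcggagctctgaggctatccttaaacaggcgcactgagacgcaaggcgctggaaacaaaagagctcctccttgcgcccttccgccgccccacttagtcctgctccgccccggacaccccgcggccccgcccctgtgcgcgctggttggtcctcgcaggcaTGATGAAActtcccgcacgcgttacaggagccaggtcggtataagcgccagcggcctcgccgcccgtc
CHAC1 (CARE, chr15:40953221-40953470, plus strand): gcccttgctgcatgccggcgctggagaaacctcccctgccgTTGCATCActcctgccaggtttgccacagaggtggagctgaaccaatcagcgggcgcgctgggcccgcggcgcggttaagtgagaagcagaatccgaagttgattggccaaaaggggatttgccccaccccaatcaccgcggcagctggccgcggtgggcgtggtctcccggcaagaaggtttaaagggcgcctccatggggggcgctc
The HSPA5 match began 66 bases before the start, that of XBP1 52 bases, those of HSP90B1 194 and 89 bases, that of ASNS 68 bases and that of CHAC1 209 bases.

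DEX lowered DDIT3 and raised DDIT4 in all 9 comparisons of DEX with its DEX-free control, which share no library with one another. DDIT3 (ENSG00000175197.12, chr12:57516588-57521737, minus strand) encodes CHOP, the factor that ATF4 induces under prolonged stress. At 2 h it was at 11.49, 12.7 and 14.2 CPM in siCtl cells with DEX, against 32.9, 34.3 and 36.6 CPM with vehicle. The groups did not overlap, and DDIT3 was 2.71-fold lower with DEX (log2 fold change -1.44, SE 0.0874, adjusted p = 1.29e-11). At 4 h in DMSO it was at 23.0, 18.7 and 19.9 CPM with DEX, against 47.9, 43.8 and 48.8 CPM without (log2 fold change -1.19, SE 0.168, adjusted p = 2.35e-05). At 24 h it was at 20.3, 19.0 and 13.9 CPM with DEX, against 49.7, 43.9 and 31.6 CPM without (log2 fold change -1.23, SE 0.169, adjusted p = 1.29e-05). The lowest DEX-free value at 24 h, in the replicate numbered 3, still lay above every DEX value. Over the 9 comparisons the log2 fold change of DDIT3 ranged from -1.44 to -1.08. MARS, which overlaps DDIT3 on the opposite strand, had a log2 fold change of -0.05 at 2 h (adjusted p = 0.589), and MBD6, which also overlaps it there, one of -0.23 (adjusted p = 0.00606). The share of such reads was not tested.

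DDIT4 (ENSG00000168209.4, chr10:72273920-72276036, plus strand) encodes REDD1, an inhibitor of the growth kinase complex mTORC1 that glucocorticoids are known to induce. At 2 h it was at 1519.7, 1496 and 1441 CPM in siCtl cells with DEX, against 569, 690.0 and 655 CPM with vehicle, a 2.33-fold rise (log2 fold change 1.22, SE 0.0653, adjusted p = 9.06e-11). At 24 h in DMSO it was at 1661, 1936 and 1602 CPM with DEX, against 724, 660.3 and 541.96 CPM without (log2 fold change 1.43, SE 0.118, adjusted p = 1.31e-08). No DEX value overlapped its control in either pair, and the log2 fold change over the 9 comparisons ranged from 0.59 to 1.57. The DDIT4 call was lost when either of 2 libraries was left out with siCtl, and likewise with siFRA1, in the AP-1 experiment. Since these are bulk libraries, less RNA per cell and fewer cells with the RNA cannot be told apart.

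**Figure D1:**
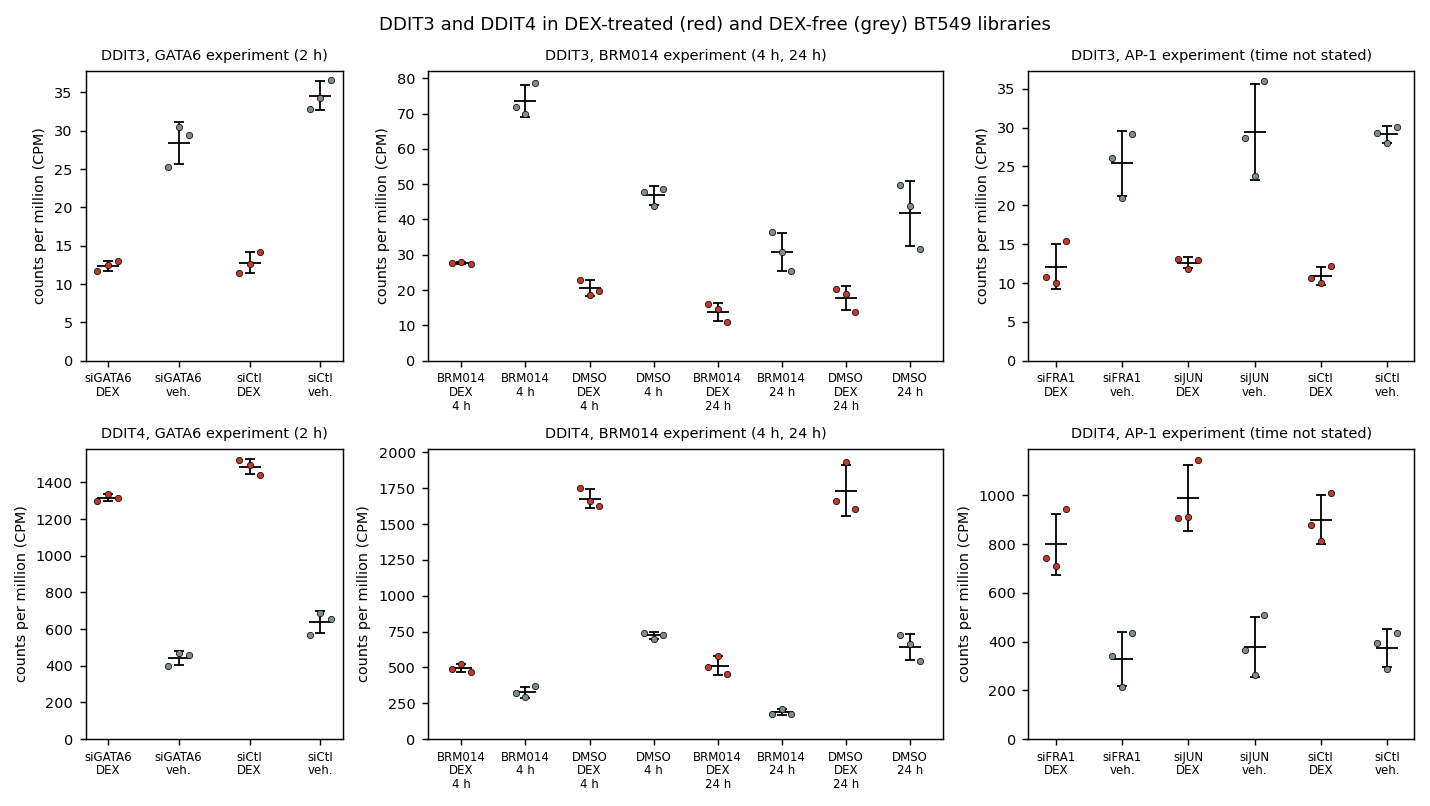
DDIT3 (upper row) and DDIT4 (lower row) in CPM, one panel per experiment. Points are libraries, red with DEX and grey without, and bars are the mean ± SD of 3 libraries. In every pair of DEX and DEX-free groups the red DDIT3 points lie below the grey ones and the red DDIT4 points above them.

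At 2 h in siCtl cells, 6 of 15 ATF4-arm genes fell and 2 rose, beside 15.9% of all genes called, 8.74% higher and 7.2% lower, and the arm's median log2 fold change was -0.12 with 0.00 over all genes. Both feedback genes fell: TRIB3, a pseudokinase that dampens ATF4, by 0.47 on the log2 scale, and PPP1R15A, which directs a phosphatase to eIF2α, by 0.45. SESN2, an mTORC1 inhibitor that binds leucine, had -0.39, the factor ATF5 -0.32 and CEBPG, a dimer partner of ATF4, -0.20, all lower with DEX. NUP62, which overlaps ATF5 on the opposite strand, was called lower too (-0.26). MTHFD2, a mitochondrial folate enzyme, rose by 0.20. ATF4 itself was not called, with 299.7, 301 and 295 CPM in siCtl cells with DEX and 319, 325 and 308 CPM with vehicle (log2 fold change -0.09, adjusted p = 0.201). With library totals alone in place of trimmed-mean scaling, 2 members rose and 8 fell at 2 h, against 4 and 7. When single libraries were left out, 8 of 11 members kept their call in every fit, and CANX, CEBPG and SEL1L did not.

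Of the 47 other ATF4 targets and regulators tested beside the members, 5 rose and 4 fell at 2 h. That share is near the 15.9% of all genes called, 8.74% higher and 7.2% lower. GDF15, a stress-induced cytokine, had a log2 fold change of -2.35 and the factor ATF3 one of -0.89. The glutamine transporter SLC38A2 rose by 1.17 and the factor CEBPB by 1.65. In siGATA6 cells the same treatment called 6 ATF4-arm genes lower and 2 higher (15.9% of all genes called, 7.98% higher and 7.96% lower), with DDIT3 at -1.19 and DDIT4 at 1.57. In edgeR's interaction test 0 members were called for a difference in DEX response between siGATA6 and siCtl cells, beside 0.338% of all genes called, 0.0935% positive and 0.245% negative, and 3 members had an unadjusted p under 0.05. DESeq2 called 1 member. Same-numbered samples deviated together, and with the replicate number as a block 1 member was called: DDIT4 responded more in siGATA6 cells (log2 difference 0.35, adjusted p = 0.0127), beside 1.81% of all genes called with the block. 1 member was also called without replicate 1 of siCtl with vehicle.

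At 4 h in DMSO, DEX lowered 5 ATF4-arm genes and raised 2, beside 12.5% of all genes called, 7.77% higher and 4.78% lower. Besides DDIT3 these were ATF5 (-0.46), PPP1R15A (-0.41), PSPH (-0.32), the last enzyme of serine synthesis, and CEBPG (-0.24), with DDIT4 (1.22) and MTHFD2 (0.38) higher. Leaving out the replicate numbered 2 of DEX with DMSO, or that numbered 3 of DMSO, gave 4 calls. The call of PPP1R15A was lost without any 1 of the 6 libraries (adjusted p = 0.0781 to 0.138), that of CEBPG without any of 4 and that of PSPH without any of 3. With DEX and BRM014 at 4 h, DDIT3 (-1.41) and TRIB3 (-0.71) fell and DDIT4 (0.59) rose against BRM014 alone (6.12% of all genes called, 3.79% higher and 2.33% lower). The TRIB3 call was lost without any 1 of the 6 libraries (adjusted p = 0.0649 to 0.198) and without the filter on low counts (0.0760).

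At 24 h in DMSO, 8 ATF4-arm genes fell and DDIT4 alone rose, beside 25.6% of all genes called, 12.6% higher and 13% lower, and the median was -0.30 with -0.02 over all genes. CHAC1 (chr15:40952962-40956519, plus strand), an enzyme that degrades glutathione, was at 6.81, 7.06 and 4.86 CPM with DEX, against 14.2, 15.8 and 13.9 CPM without. These groups did not overlap, and CHAC1 was 2.33-fold lower with DEX (log2 fold change -1.22, SE 0.195, adjusted p = 7.69e-05). TRIB3 had -0.81, ATF5 -0.65, SESN2 -0.49, PHGDH, the first enzyme of serine synthesis, -0.48, CEBPG -0.37 and PSAT1, the next enzyme, -0.30, all lower with DEX. ATF4 was again not called (-0.05, adjusted p = 0.684). Of the 47 other ATF4 genes, 16 fell and 3 rose. GDF15 (-2.98) and EIF2AK2 (-1.14), the eIF2α kinase that senses double-stranded RNA, were lowest, and CEBPB (0.53) and EIF2B5 (0.50), a subunit of the factor that recharges eIF2, highest among those called.

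In the AP-1 experiment, DEX lowered DDIT3 and PPP1R15A and raised DDIT4 with each siRNA. With siCtl, DDIT3 was at 10.6, 9.96 and 12.2 CPM with DEX, against 29.3, 28.0 and 30.1 CPM with vehicle (log2 fold change -1.42, SE 0.164, adjusted p = 2.61e-06). The groups did not overlap. The calls were 3 members with siCtl (5.51% of all genes called, 3.46% higher and 2.05% lower), 4 with siFRA1 (4.93% of all genes called, 3.17% higher and 1.76% lower), where ATF5 also fell, and 3 with siJUN (5.69% of all genes called, 3.46% higher and 2.23% lower). With the replicate block, 7 members were called with siCtl (9.74% of all genes) and 8 with siJUN (10.5%). CHAC1 (-0.82 with siCtl and -0.64 with siJUN), TRIB3 (-0.44 with siCtl and -0.44 with siJUN), SESN2 (-0.36 with siCtl and -0.39 with siJUN) and CEBPG (-0.24 with siCtl and -0.25 with siJUN) were then called lower. With siFRA1, 1 member was called without replicate 1 of siFRA1 with vehicle, and 2 without replicate 1 of siFRA1 with DEX. The PPP1R15A call with siFRA1 was lost in 4 of 6 such fits and the ATF5 call in 2.

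The counts in this paragraph are from the fits without the replicate block. They thus leave out, among others, CHAC1, TRIB3, SESN2 and CEBPG with siCtl and siJUN, called lower with the block. Over the 9 DEX comparisons PPP1R15A was called lower in 6, ATF5, CEBPG and TRIB3 in 5 each, SESN2 in 3 and PSAT1 in 2. CHAC1, PHGDH and PSPH were called lower in 1 each, and MTHFD2 was called higher in 3 and lower in 1. ATF4, ASNS and SHMT2 were called in 0 of the 9, and the log2 fold change of ATF4 ranged from -0.17 to -0.01.

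In siCtl cells at 2 h DEX moved 3 of 18 ER-arm genes, a share near the 15.9% of all genes called. At 24 h in DMSO it lowered 10 of 18, beside 25.6% of all genes called and 13% lower. At 2 h in siCtl cells XBP1, the factor downstream of IRE1, fell (log2 fold change -0.29, SE 0.0603, adjusted p = 0.00144), while CANX, a lectin chaperone, rose by 0.14 and SEL1L, a scaffold of ER-associated degradation, by 0.14 (adjusted p = 0.0499). SEL1L was not called by DESeq2, and neither SEL1L nor CANX was called with library totals alone. With the replicate block 5 were called beside 22.8% of all genes, HSP90B1 (0.10) and HERPUD1 (-0.21) in addition. Elsewhere edgeR called 0 of 18 ER-arm genes for DEX at 2 h in siGATA6 cells (0 with an unadjusted p under 0.05, 0 by DESeq2), beside 15.9% of all genes. At 4 h it called 0 in DMSO (1 unadjusted, 0 by DESeq2), beside 12.5%, and 0 with BRM014 (2 unadjusted, 0 by DESeq2), beside 6.12%. In the AP-1 experiment it called 0 with siCtl, siFRA1 and siJUN (1, 0 and 1 unadjusted, 0 by DESeq2), where 5.51%, 4.93% and 5.69% of all genes were called, so a count of 0 among 18 is near the background there and with BRM014 at 4 h.

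At 24 h in DMSO the ER arm's median log2 fold change for DEX was -0.40 with -0.02 over all genes. HSPA5 (ENSG00000044574.7, chr9:125234853-125241330, minus strand) encodes BiP, the main ER chaperone, which also holds the 3 sensors inactive. Its promoter window is the first of those printed. It was at 911, 987 and 743 CPM with DEX, against 1841, 1622 and 1307 CPM without. Every DEX library lay below every DMSO library (1.81-fold lower, log2 fold change -0.85, SE 0.126, adjusted p = 3.21e-05). The degradation component HERPUD1 (-0.55), the lectin chaperone CALR (-0.45), PERK's gene EIF2AK3 (-0.45) and SDF2L1 (-0.42), a partner of BiP's cochaperones, were the next lowest of those called. XBP1 had -0.32 (adjusted p = 0.0174). Of 48 other ER genes, 14 fell and 2 rose, beside 25.6% of all genes called, 12.6% higher and 13% lower. WFS1 (-1.10) and the ER retention receptor KDELR3 (-0.97) were lowest, and SSR3 (0.53) and SRPRB (0.27), which serve entry into the ER, highest.

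The DEX effect at 24 h was tested against that at 4 h: HSPA5 (-0.75 on the log2 scale), CALR (-0.51), PDIA4 (-0.36), a disulfide isomerase, and CHAC1 (-0.98) differed, 4 of 33 members beside 8.9% of all genes called, 2.61% positive and 6.28% negative. DMSO at 24 h against DMSO at 4 h gave 0 members and 0 genes in edgeR, with 174 genes and 1 member at an unadjusted p under 0.05, and 0 members by DESeq2. The counts at 24 h rested in part on single libraries: 12 members in all were called for DEX without replicate 1 of DMSO, against 19, 14 without replicate 3 of DEX with DMSO, and 6 when those groups were fitted alone. Only 10 of 19 kept their call without each library in turn, and PHGDH, PSAT1 and SESN2 of the ATF4 arm and CANX, CRELD2, DNAJC3, EIF2AK3, SDF2L1 and XBP1 of the ER arm did not. Of the differences between the times, those of CHAC1 and PDIA4 were lost in some of these fits.

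**Figure D2:**
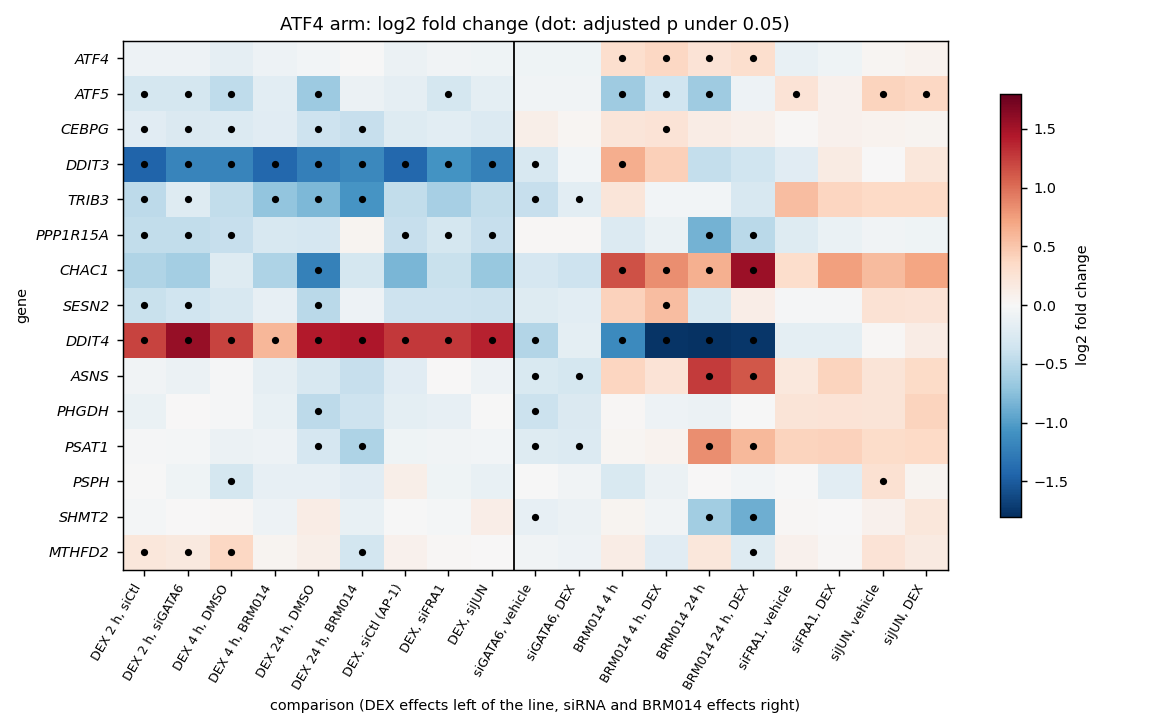
Log2 fold changes of the 15 ATF4-arm genes (rows) in 19 comparisons (columns), on a red to blue scale for higher and lower. Dots mark an adjusted p under 0.05 in edgeR; DDIT3 is blue and DDIT4 red in each DEX column.

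**Figure D3:**
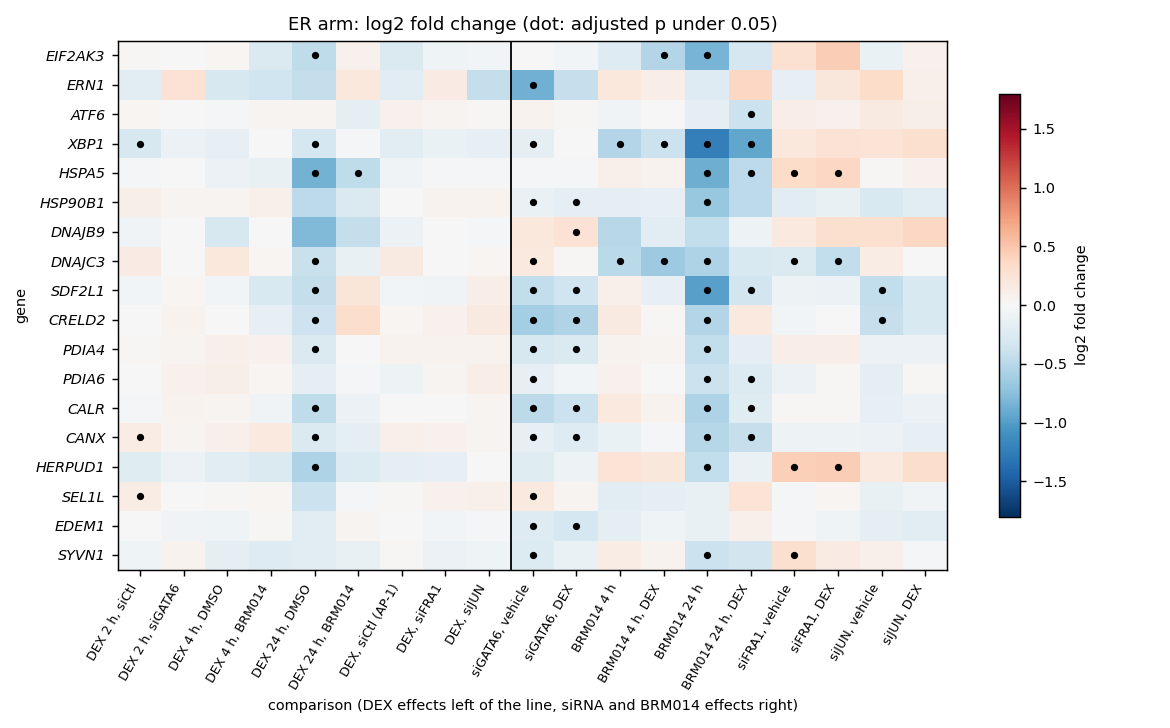
Log2 fold changes of the 18 ER-arm genes (rows) in the same 19 comparisons (columns), with dots at an adjusted p under 0.05. Dots gather in the columns of siGATA6, of BRM014 at 24 h and of DEX at 24 h in DMSO.

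Genes of both arms were lower by small amounts in cells with siGATA6. Loss of GATA6 and other effects of these pooled siRNAs cannot be told apart here. With vehicle, 7 of 15 ATF4-arm genes fell, and 11 of 18 ER-arm genes fell while 2 rose, beside 23.7% of all genes called, 12.1% higher and 11.6% lower. Medians were -0.23 in the ATF4 arm and -0.17 in the ER arm, with 0.01 over all genes. These comparisons share their siCtl libraries with the DEX comparisons above. ERN1, which encodes the sensor IRE1 (chr17:64039142-64130819, minus strand), was at 2.18, 2.61 and 2.65 CPM with siGATA6, against 4.70, 5.02 and 4.15 CPM with siCtl (log2 fold change -0.86, SE 0.159, adjusted p = 3.64e-04). CRELD2, a stress-inducible ER chaperone (chr22:49918167-49927540, plus strand), was at 42.9, 42.9 and 43.6 CPM with siGATA6, against 65.9, 68.1 and 64.7 CPM with siCtl (log2 fold change -0.62, SE 0.0488, adjusted p = 4.24e-09). Neither pair of groups overlapped.

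Of the 10 chaperone genes 7 fell with siGATA6 and vehicle: CRELD2, CALR (-0.47), SDF2L1 (-0.44), the disulfide isomerases PDIA4 (-0.29) and PDIA6 (-0.15), CANX (-0.14) and HSP90B1 (-0.13), the ER form of HSP90. HSPA5 was not called, at 1581, 1606 and 1611 CPM with siGATA6 and 1648, 1609.7 and 1631 CPM with siCtl (log2 fold change -0.03, 95% interval -0.11 to 0.05). DNAJC3, a cochaperone that inhibits PERK, and SEL1L rose, each by 0.18. In the degradation group SYVN1, the ubiquitin ligase HRD1, had -0.25 and EDEM1, which directs misfolded glycoproteins to degradation, -0.24, both lower, and XBP1 had -0.18.

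In the ATF4 arm DDIT4 was lower with siGATA6 (-0.53), as were TRIB3 (-0.42), PHGDH (-0.38), DDIT3 (-0.29) and asparagine synthetase ASNS (-0.28), with PSAT1 (-0.24) and SHMT2 (-0.14), a mitochondrial serine enzyme, also called. ATF4 had -0.07 (adjusted p = 0.231). So 4 of the 6 amino acid synthesis genes fell, though each of these 4 calls was lost in some fits with 1 library left out. Of the other genes, 15 of 47 ATF4 genes fell and 4 rose, and 17 of 48 ER genes fell and 3 rose. The background was 23.7% of all genes called, 12.1% higher and 11.6% lower. STC2 (-0.69), a secreted glycoprotein, and GDF15 (-0.48) were lowest among the called ATF4 genes, and VEGFA (0.49) and CEBPB (0.44) highest.

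With DEX, siGATA6 lowered 3 ATF4-arm and 7 ER-arm genes and raised 1 (22.6% of all genes called, 11.1% higher and 11.5% lower). CRELD2 (-0.55), CALR (-0.39), SDF2L1 (-0.36), EDEM1 (-0.31) and PDIA4 (-0.26) led the ER arm, ASNS (-0.32), PSAT1 (-0.25) and TRIB3 (-0.19) were the ATF4-arm genes, and DNAJB9, a cochaperone of BiP, rose (0.25). DESeq2 did not call DNAJB9 or TRIB3, and both calls were lost when some single libraries were left out. DDIT3 (-0.04, adjusted p = 0.796), DDIT4 (-0.17, adjusted p = 0.0610), XBP1 (0.00), HSPA5 (-0.02) and ATF4 (-0.08) were not called. Of the 3 sensor genes, ERN1 included, 0 were called. With the replicate number as a block, whose same-numbered samples deviated together, 8 ATF4-arm genes were lower beside 32.4% of all genes called. CHAC1 (-0.39), PHGDH (-0.26), DDIT4 (-0.17, adjusted p = 0.0113), SHMT2 (-0.11) and MTHFD2 (-0.10) were those added.

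ATF6B, the paralogue of ATF6 that is no member, had the largest change of the 48 other ER genes with siGATA6 and vehicle. It was at 27.0, 28.3 and 26.9 CPM with siGATA6, against 115, 118 and 107 CPM with siCtl (log2 fold change -2.05, SE 0.0554, adjusted p = 2.87e-17). With DEX the values were 27.3, 28.6 and 30.3 CPM with siGATA6 and DEX, against 121, 119 and 113 CPM with siCtl and DEX (log2 fold change -2.03, SE 0.0554, adjusted p = 3.50e-17). It was 4.13-fold lower with vehicle and 4.07-fold lower with DEX, and no libraries overlapped. Its exons overlap those of TNXB and AL662884.2 on the same strand, and member ATF6 was not called (0.07 with vehicle). The non-polyadenylated RNAs RN7SK (8.41 ± 2.99 CPM with siGATA6 and 2.98 ± 0.413 CPM with siCtl) and RNA45S5 (35.2 ± 13.6 CPM with siGATA6 and 11.3 ± 0.549 CPM with siCtl) were also higher with siGATA6 and vehicle (SD, n = 3 each), both highest in its replicate 1. Their part in these results was not tested. Without that replicate 11 members were called with vehicle, against 20, and without any other single library 14 to 21. 10 of 20 kept their call in every such fit, and ASNS, DDIT3, PHGDH, PSAT1 and SHMT2 of the ATF4 arm and CANX, DNAJC3, HSP90B1, PDIA6 and XBP1 of the ER arm did not.

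**Figure D4:**
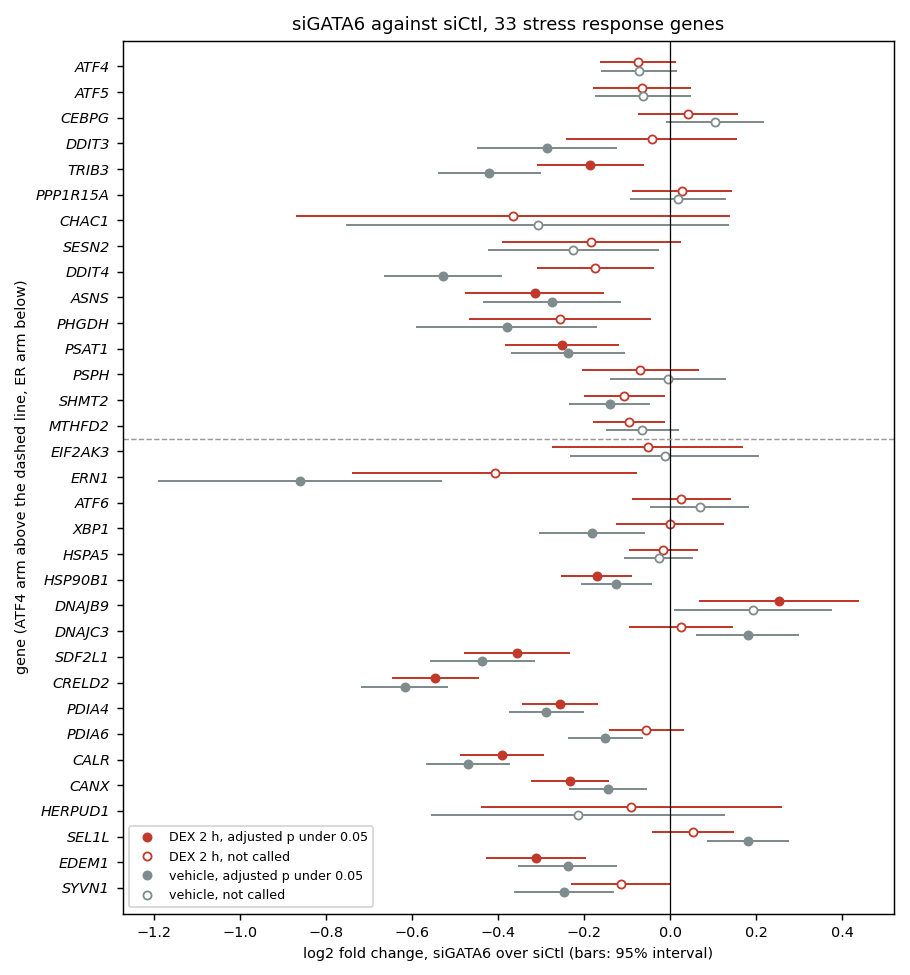
Log2 fold changes with 95% intervals for siGATA6 over siCtl in the 33 genes, red with DEX and grey with vehicle, filled where the adjusted p was under 0.05. Most filled points lie left of 0, with ERN1 at -0.86 with vehicle the lowest and HSPA5 close to 0. ERN1 was not called with DEX.

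Over 4 BRM014 comparisons, which share no library with one another, ATF4 and CHAC1 of the ATF4 arm rose in all 4. DDIT4 of the same arm and XBP1 of the ER arm fell in all 4. ATF5 and DNAJC3 were called lower in 3 of the 4. DDIT4 at 24 h was at 177, 210.1 and 172 CPM with BRM014, against 724, 660.3 and 541.96 CPM with DMSO (3.45-fold lower, log2 fold change -1.78, SE 0.119, adjusted p = 6.46e-10). XBP1 (ENSG00000100219.16, chr22:28794555-28800597, minus strand) at 24 h was at 54.3, 58.7 and 52.5 CPM with BRM014, against 147, 129 and 113 CPM with DMSO (2.35-fold lower, log2 fold change -1.23, SE 0.0966, adjusted p = 6.05e-09). The groups were fully apart for both genes. ATF4 (ENSG00000128272.14, chr22:39519695-39522685, plus strand) at 24 h was at 391, 462 and 399.6 CPM with BRM014, against 371, 361 and 322 CPM with DMSO (log2 fold change 0.25, SE 0.0805, adjusted p = 0.0224). These groups too did not overlap, though the ATF4 call at 24 h was lost when the treated 24 h libraries numbered 2 were left out (adjusted p = 0.0982), without replicate 3 of DMSO (0.130) and without the filter on low counts (0.0803). At 4 h it was lost without the filter (0.0841) and without any of 5 of the 6 libraries (0.0533 to 0.106). With DEX present, both ATF4 calls held in every fit with 1 library left out. ATF4 has 4 named pseudogenes, with which its reads may be shared.

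At 4 h, BRM014 raised 3 ATF4-arm genes and lowered 2, and lowered 2 ER-arm genes, beside 8.68% of all genes called, 4.61% higher and 4.06% lower. CHAC1 was at 26.1, 33.9 and 42.9 CPM with BRM014, against 13.1, 14.8 and 18.7 CPM with DMSO (log2 fold change 1.15, SE 0.188, adjusted p = 4.17e-04). DDIT3 was at 72.0, 70.0 and 78.8 CPM with BRM014, against 47.9, 43.8 and 48.8 CPM with DMSO (log2 fold change 0.65, SE 0.165, adjusted p = 0.0153). No BRM014 library overlapped a DMSO one for either gene. MARS, on the strand opposite DDIT3, was also called higher (0.31), and the split of reads between them was not tested. ATF4 rose by 0.30, and DDIT4 (-1.15), ATF5 (-0.64), XBP1 (-0.53) and DNAJC3 (-0.49) were lower. HSPA5 was not called (0.10, adjusted p = 0.714). Without the replicate numbered 2 of DMSO, 4 members were called, against 7, and the calls of ATF4, DDIT3 and DNAJC3 were lost in some fits with 1 library left out.

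At 24 h, BRM014 lowered 13 of 18 ER-arm genes, with a median log2 fold change of -0.48 and one of 0.01 over all genes. The background was 31.5% of all genes called, 15.1% higher and 16.4% lower. Library totals alone moved the median of all genes to 0.147, and 15 members were then lower and 6 higher. Of the 10 chaperone genes 9 fell. HSPA5 was at 868, 927 and 811 CPM with BRM014, against 1841, 1622 and 1307 CPM with DMSO (log2 fold change -0.87, SE 0.126, adjusted p = 1.84e-05). SDF2L1 (chr22:21642261-21644298, plus strand) was at 29.3, 35.4 and 31.7 CPM with BRM014, against 60.7, 64.4 and 64.0 CPM with DMSO (log2 fold change -0.97, SE 0.123, adjusted p = 3.63e-06). Neither gene's groups overlapped: HSPA5 was 1.83-fold and SDF2L1 1.96-fold lower.

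HSP90B1 was at 1020.1, 613 and 976 CPM with BRM014, against 1419, 1356 and 1398 CPM with DMSO (log2 fold change -0.68, SE 0.221, adjusted p = 0.0241), and the replicate numbered 2 was the low one with BRM014. This call was lost without that library (adjusted p = 0.126), without replicate 1 or 3 of DMSO and with library totals alone (0.0795). CALR (-0.56), DNAJC3 (-0.55), CRELD2 (-0.53), CANX (-0.51), PDIA4 (-0.44) and PDIA6 (-0.38) were the other chaperones lowered. Of the sensors EIF2AK3 fell (-0.83), while ERN1 (-0.24) and ATF6 (-0.18) were not called. In the degradation group HERPUD1 (-0.44) and SYVN1 (-0.39) fell, SYVN1 not in every fit with 1 library left out. The 7 genes with an ERSE in their window were all among those lowered, as were 6 of the other 11 ER-arm genes, a count given without a test that includes HSP90B1.

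The ATF4 arm at 24 h went both ways, 4 genes higher and 4 lower, with a median of -0.05, beside 31.5% of all genes called. ASNS, asparagine synthetase (ENSG00000070669.16, chr7:97852118-97872542, minus strand), was at 258.5, 303 and 309.7 CPM with BRM014, against 144, 130.1 and 92.4 CPM with DMSO, a 2.38-fold rise (log2 fold change 1.25, SE 0.160, adjusted p = 3.98e-06). PSAT1 was at 465, 548.03 and 533 CPM with BRM014, against 301, 304 and 259.9 CPM with DMSO (log2 fold change 0.84, SE 0.104, adjusted p = 2.73e-06). Both sets of libraries were apart from their controls, and both genes have named pseudogenes. CHAC1 rose by 0.64, a call lost without the treated libraries numbered 2 (adjusted p = 0.0511) and without replicate 3 of BRM014 (0.0509). PPP1R15A (-0.85), ATF5 (-0.64) and SHMT2 (-0.62) fell with DDIT4, and DDIT3 had -0.44 (adjusted p = 0.0506).

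Beside 31.5% of all genes called at 24 h (15.1% higher and 16.4% lower), 18 of 47 other ATF4 genes fell and 6 rose. GDF15 (-4.43) and NUPR1 (-3.38), a stress-induced chromatin protein, were lowest, and CBS (0.72) and AARS (0.55) highest. Among other ER genes 25 fell and 2 rose, with DERL3 (-1.41) and PDIA5 (-1.32) lowest and SEC11C (0.70) highest.

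**Figure D5:**
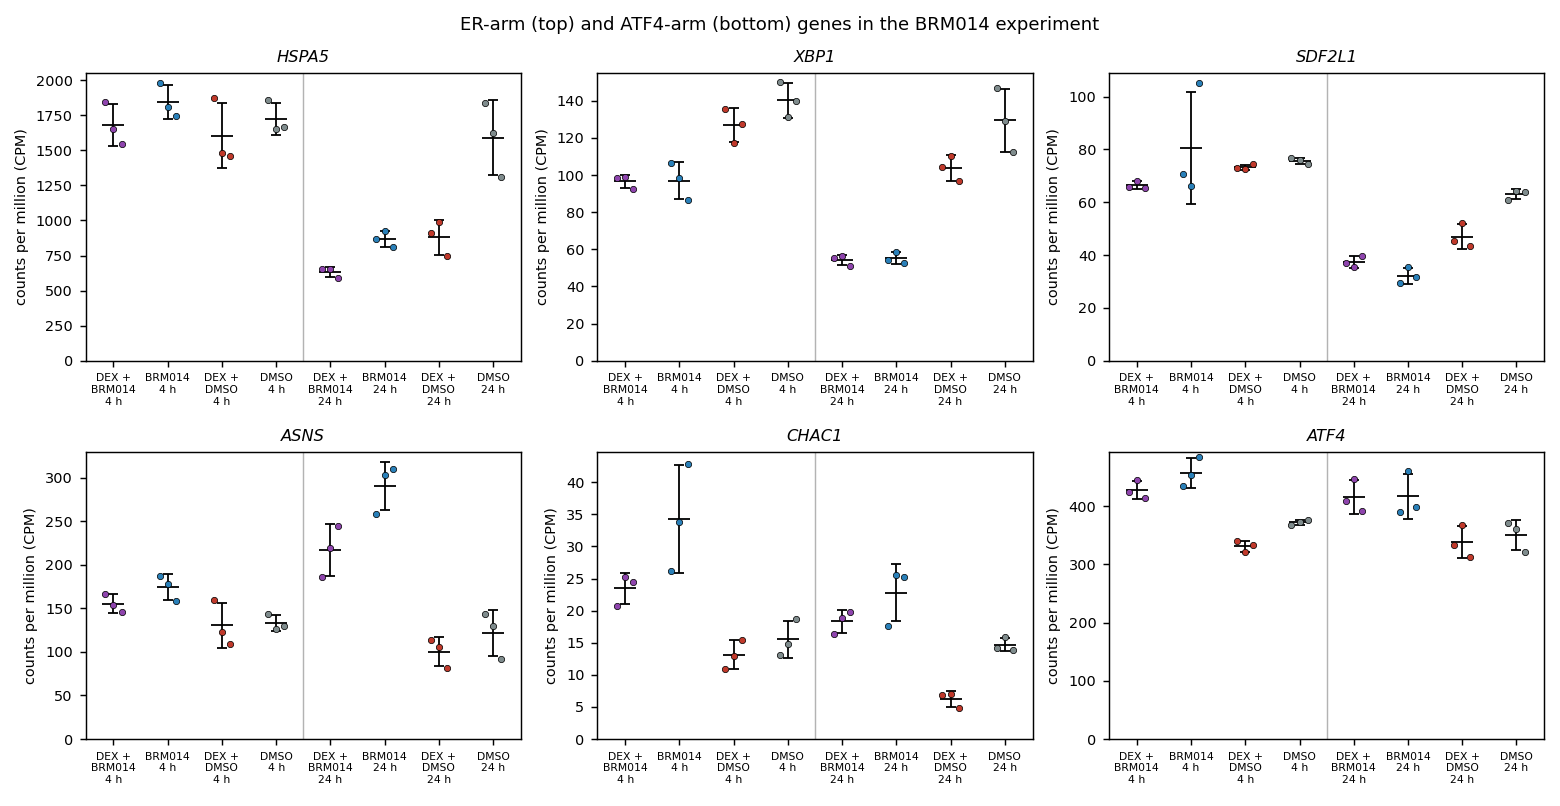
CPM of HSPA5, XBP1, SDF2L1, ASNS, CHAC1 and ATF4 in the 8 groups of the BRM014 experiment, with a point per library and bars at the mean ± SD of 3. At 24 h the BRM014 points of HSPA5, XBP1 and SDF2L1 lie below those of DMSO, and those of ASNS and ATF4 lie above them.

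The time dependence was tested directly. The BRM014 effect at 24 h minus that at 4 h was called for 17 members beside 9.44% of all genes called, 2.89% positive and 6.55% negative, 10 of 18 in the ER arm lower and, in the ATF4 arm, 5 lower and 2 higher. SDF2L1 (-1.06), HSPA5 (-0.97), CALR (-0.73) and XBP1 (-0.70) were among the ER genes, and ASNS (0.86) and PSAT1 (0.80) had the positive differences. DDIT3 (-1.09), which BRM014 had raised at 4 h, had the most negative one. 12 of 17 differences kept their call without each library in turn, and those of CANX, DDIT4, EIF2AK3, PPP1R15A and SESN2 did not.

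With DEX present, BRM014 at 4 h called 4 ATF4-arm genes higher and 2 lower, and 3 ER-arm genes lower, beside 12.8% of all genes called, 5.38% higher and 7.44% lower. CHAC1 (0.84), SESN2 (0.56), ATF4 (0.37) and CEBPG (0.25) were higher, and DDIT4 (-1.77), DNAJC3 (-0.65), EIF2AK3 (-0.53), XBP1 (-0.39) and ATF5 (-0.37) lower. HSPA5 (0.07) and DDIT3 (0.44) were not called, but DDIT3 was called higher with the replicate block (0.44, adjusted p = 0.0310). The calls of CEBPG and SESN2 were lost in some fits with 1 library left out. Library totals alone gave 6 members higher and 5 lower, against 4 and 5.

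At 24 h with DEX, BRM014 called 4 ATF4-arm genes higher and 4 lower, and 7 ER-arm genes lower, beside 35.5% of all genes called, 17.6% higher and 17.9% lower. CHAC1 was at 16.4, 18.9 and 19.8 CPM with DEX and BRM014, against 6.81, 7.06 and 4.86 CPM with DEX and DMSO (2.91-fold, log2 fold change 1.54, SE 0.196, adjusted p = 3.12e-06), with no overlap. ASNS (1.11), PSAT1 (0.58) and ATF4 (0.30) were higher. DDIT4 (-1.76), XBP1 (-0.94), SHMT2 (-0.88), PPP1R15A (-0.49), HSPA5 (-0.48) and CANX (-0.42) led those lower, and DDIT3 had -0.36 (adjusted p = 0.103, and 0.0433 with the replicate block). Library totals alone gave 5 higher and 7 lower, against 4 and 11, and 8 members were called when those groups were fitted alone. Without replicate 3 of DEX with DMSO 19 were called, against 15, and the calls of CALR, MTHFD2, PDIA6 and SDF2L1 were lost in some fits with 1 library left out.

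With BRM014 at 24 h, DEX lowered DDIT3 (-1.16), TRIB3 (-1.06), PSAT1 (-0.55), CEBPG (-0.42), MTHFD2 (-0.33) and HSPA5 (-0.46) and raised DDIT4 (1.46), beside 13.8% of all genes called, 7.55% higher and 6.21% lower. Library totals alone gave 11 calls, and the calls of HSPA5 and MTHFD2 were lost in some fits with 1 library left out. With the replicate block CRELD2 was called higher as well (0.33), and 18.6% of all genes were called. In the test of the interaction at 4 h, the DEX rise of DDIT4 was smaller with BRM014 than with DMSO (log2 fold change -0.62, SE 0.163, adjusted p = 0.0493), the 1 call beside 2.29% of all genes called, 0.564% positive and 1.73% negative. That call was lost with library totals, without the filter on low counts and without 11 of the 12 libraries in turn. At 24 h the interaction was called for CHAC1 (0.90), CRELD2 (0.70), SDF2L1 (0.64), ATF5 (0.54) and MTHFD2 (-0.44), 5 members beside 6.54% of all genes called, 3.77% positive and 2.78% negative. Leaving out single libraries gave 2 to 6 calls. The CHAC1 call (adjusted p = 0.0477) was lost in 10 of these 12 fits, without the filter on low counts (0.0653) and without the treated libraries numbered 2 (0.0711). That of MTHFD2 was lost in 7 of the 12 and under both of those settings (0.0589 and 0.104), and that of SDF2L1 in 8 and without the filter (0.0570).

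The siRNAs siFRA1 and siJUN moved few members without a block, and more with the replicate number as a block, whose same-numbered samples deviated together. With vehicle, siFRA1 raised HERPUD1 (0.43), HSPA5 (0.32), SYVN1 (0.28) and ATF5 (0.24) and lowered DNAJC3 (-0.26), beside 10.8% of all genes called, 5.54% higher and 5.28% lower. HSPA5 was at 2059, 1780.0 and 2094 CPM with siFRA1, against 1469.8, 1513 and 1759 CPM with siCtl (log2 fold change 0.32, SE 0.0894, adjusted p = 0.0230), and the groups did not overlap. With the block 12 members were called beside 24.6% of all genes, 9 of them higher, TRIB3 (0.53) and PSAT1 (0.39) among them, and HSP90B1 lower (-0.20). Without the block, 0 were called when replicate 2 of siCtl, or replicate 1 or 3 of siFRA1, was left out, and 1 without replicate 1 of siCtl. Library totals alone gave 4 higher and 0 lower.

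With DEX, siFRA1 raised HERPUD1 (0.44) and HSPA5 (0.37) and lowered DNAJC3 (-0.44), beside 12.9% of all genes called, 6.16% higher and 6.71% lower. edgeR called 0 ATF4-arm genes there (3 at an unadjusted p under 0.05, 0 by DESeq2). With the block 12 members were called (26.5% of all genes), 10 of them higher, CHAC1 (0.72), EIF2AK3 (0.45) and ASNS (0.41) among them. 1 member was called without replicate 2 of siCtl with DEX, the HERPUD1 call was lost in 3 of 6 such fits, and library totals alone gave 4 higher and 1 lower.

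With vehicle, siJUN raised ATF5 (0.40) and PSPH (0.28) and lowered SDF2L1 (-0.45) and CRELD2 (-0.41), beside 6.82% of all genes called, 3.68% higher and 3.14% lower. SDF2L1 was at 21.4, 17.6 and 23.4 CPM with siJUN, against 28.7, 25.1 and 31.2 CPM with siCtl (log2 fold change -0.45, SE 0.111, adjusted p = 0.0159), and the groups did not overlap. With the block 16 members were called beside 18.7% of all genes. In the ATF4 arm 8 were higher, CHAC1 (0.54) and PSAT1 (0.33) among them, and in the ER arm 7 were lower, HSP90B1 (-0.27) and PDIA6 (-0.18) among them, with XBP1 higher (0.25). 2 members were called without replicate 1 of siCtl or replicate 2 of siJUN, and the calls of PSPH and SDF2L1 were lost in some fits with 1 library left out.

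With DEX, siJUN raised ATF5 (0.37), the 1 call beside 6.57% of all genes called, 3.27% higher and 3.31% lower. edgeR called 0 ER-arm genes (8 at an unadjusted p under 0.05, 1 by DESeq2). With the block 13 members were called (17.2% of all genes), 6 ATF4-arm genes higher and, in the ER arm, 3 higher and 4 lower. PHGDH (0.40) and CHAC1 (0.71) were among the higher. For a difference in DEX response between siFRA1 or siJUN and siCtl, edgeR called 0 members and 0 genes in both interactions, with 302 and 378 genes but 0 members at an unadjusted p under 0.05, and DESeq2 called 0 members. DDIT3, DDIT4, XBP1 and ATF4 were not called for either siRNA in edgeR without the block, and the log2 fold changes of ATF4 were -0.13 for siFRA1 and 0.04 for siJUN with vehicle.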

How the data were processed

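The authors deposited raw counts of reads per gene, 1 table per library with 26517 symbols, and these counts are the unit of every test. The builds GRCh38 and hg38 and the tools bcl2fastq, featureCounts, SAMtools and DESeq2 are named in the submitters' processing notes, and STAR per the file headers of AP-1 libraries. No source used here gives versions, annotation or strand setting. The molecule label is polyA RNA for the AP-1 libraries and total RNA for all others. Yet 1 protocol with removal of ribosomal RNA is given for every library, so the experiments were never pooled. The non-polyadenylated RN7SK averaged 82.2 CPM with siCtl and vehicle in the AP-1 experiment, 2.98 CPM in the GATA6 experiment and 1.66 CPM in DMSO at 4 h. RNA45S5 averaged 84.6, 11.3 and 14.2 CPM in the same groups. These levels run opposite to the molecule labels, and the reason was not tested. The 24 h time comes from the titles and is absent from the treatment protocol. In 18 of 18 AP-1 tables the number in the header is not that of the sample the table was deposited for, and the sample of the deposit was used. MDA-MB-231 cells were not analysed here, and 1 series-level table equal to a library table was not used.

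Each experiment was fitted alone in R 4.3.3 with edgeR 4.0.16 (limma 3.58.1): filterByExpr, TMM scaling, a mean per group, and the robust quasi-likelihood test, two-sided, with Benjamini-Hochberg adjustment over the genes tested, which were 13897 (GATA6), 14547 (BRM014) and 13658 (AP-1). Calls needed an adjusted p under 0.05, and adjusted p-values come from this test unless DESeq2 1.42.0 or the block is named. CPM are counts over TMM-scaled library totals. Before that scaling the totals spanned 12888724 to 30530736, 13243316 to 29339329 and 10186607 to 16352524. The script was tested on simulated data, with 1 comparison per experiment. Of 1.3-fold and 1.5-fold changes it called 6% and 26% in the right direction in the BRM014 experiment. In the AP-1 experiment it called 30% and 66%, and in the GATA6 experiment 74% and 88%. A member not called may thus have changed by such an amount, above all in the BRM014 experiment. Counts differed beyond sampling noise in each of 54 replicate pairs (chi-square over its degrees of freedom 3.04 to 106). The titles call the replicates of the GATA6 and BRM014 experiments biological and only number those of the AP-1 experiment. For AP-1, p-values then cover only the spread among these samples, and that may be technical.

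The members and lists were chosen with earlier results of these data known. In the main comparisons ATF4, DDIT3, XBP1, HSPA5 and DDIT4 are named, called or not, with up to 5 called members per arm and direction and up to 2 other pathway genes per direction. Other members were named to complete a role group. The main fits and their p-values used no pairing, and the replicate block was an alternative run beside them. Replicate numbers were judged to pair the samples where the deviations of every same-numbered pair correlated above 0.1. This held in all comparisons of the GATA6 experiment (r 0.232 to 0.699) and of the AP-1 experiment (0.169 to 0.743), and in 6 of 13 of the BRM014 experiment (-0.308 to 0.975 over all its pairs). Gene positions are from GENCODE 29 on GRCh38, and promoter sequences from RefSeq on GRCh38.p14. A gene that the rule for other pathway genes selects is not reported here.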

Additional observations from a re-analysis of the deposited data

Results flagged for a closer look

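These results were picked out because the effect of a treatment differed between 4 h and 24 h in edgeR's test of the difference itself. All values are log2 differences, the effect at 24 h minus the effect at 4 h.

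For BRM014 in the ATF4 arm, the difference was -1.09 for DDIT3, -0.69 for SESN2, -0.67 for SHMT2, -0.64 for DDIT4 and -0.60 for PPP1R15A, and 0.86 for ASNS and 0.80 for PSAT1. In the ER arm it was -1.06 for SDF2L1, -0.97 for HSPA5, -0.73 for CALR, -0.70 for XBP1, -0.69 for CRELD2 and HERPUD1, -0.60 for EIF2AK3, -0.51 for PDIA4, -0.46 for PDIA6 and -0.39 for CANX.

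For DEX in DMSO, the difference was -0.98 for CHAC1, -0.75 for HSPA5, -0.51 for CALR and -0.36 for PDIA4. Both tests use the DMSO groups at 4 h and 24 h, so they share control libraries. Among the libraries of DMSO at 24 h, the replicate numbered 3 was the lowest for DDIT3, TRIB3, ASNS and HSPA5. With each library left out in turn, 12 to 16 members differed for BRM014 and 3 to 4 for DEX. The BRM014 differences of CANX, DDIT4, EIF2AK3, PPP1R15A and SESN2 were lost in some of these fits. So were the DEX differences of CHAC1 and PDIA4. In the full fits 9.44% of all genes were called for the BRM014 difference and 8.9% for the DEX difference. The 4 of 33 members called for DEX are near that share.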

How the results depend on the processing

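No called member changed direction under the alternatives tallied in this paragraph. The fits of the compared groups alone are not among them: direction and lost calls of single members were not tallied there. Of 188 calls of a member in a comparison, 15 were lost with library totals alone, 21 without the filter on low counts, 3 with DESeq2 and 0 with the replicate block. Leaving out single libraries kept 1027 of 1290. With the 24 h treated libraries numbered 2 left out, an alternative chosen after seeing the data, 14 of 88 calls were lost and no count of members moved by over 1.5 times. The cause of these changes was not tested, and some of the fits also had fewer samples.

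The replicate block moved the number of members called to 1 for the siGATA6 by DEX interaction, 7 and 8 for DEX with siCtl and siJUN in the AP-1 experiment, 12 and 12 for siFRA1 with vehicle and with DEX, and 16 and 13 for siJUN with vehicle and with DEX. Where numbers did not pair the samples, the block gave 9 for the BRM014 by DEX interaction at 24 h and 7 for the DEX effect at 24 h minus 4 h. By arm, it also moved the ATF4 arm to 8 from 3 for siGATA6 with DEX, and the ER arm to 5 from 3 for DEX at 2 h in siCtl cells and to 2 from 1 for DEX at 24 h with BRM014. In the comparisons not named here, no count of members, in all or by arm, moved by over 1.5 times.

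Fits of the compared groups alone gave 6 members for DEX at 24 h in DMSO, 8 for BRM014 at 24 h with DEX, 3 for the interaction at 24 h, 2 for the DEX effect at 24 h minus 4 h, 2 for DEX with siFRA1, 3 for siFRA1 and 2 for siJUN with vehicle. Library totals alone gave 11 for DEX at 24 h with BRM014, 0 for the interaction at 4 h, 5 for siFRA1 and 2 for siJUN with DEX. No filter gave 0 and 2 for the interactions at 4 h and 24 h. DESeq2 gave 1 for the siGATA6 by DEX interaction and 2 for siJUN with DEX.

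Leaving out single libraries gave 11 to 21 members for siGATA6 with vehicle, 0 to 1 for the siGATA6 by DEX interaction, 4 to 7 for BRM014 at 4 h, 4 to 6 for DEX at 4 h in DMSO and 12 to 19 for DEX at 24 h in DMSO. It gave 0 to 1 and 2 to 6 for the interactions at 4 h and 24 h. In the AP-1 experiment it gave 1 to 4 for DEX with siFRA1, 0 to 5 and 1 to 4 for siFRA1 with vehicle and with DEX, and 2 to 6 for siJUN with vehicle. The wider spread between replicates of the BRM014 experiment limits what small changes could be called there, and CHAC1 and ERN1 had the fewest reads of the members.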
